A study of Mus musculus with 6 samples.

Results

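Expression of 10 genes of MHC class II antigen presentation was followed in colon tissue of mice with colitis given *B. vulgatus* or vehicle. The genes were H2-Aa, H2-Ab1, H2-Eb1, Cd74, Ciita, H2-DMa, H2-DMb1, H2-Oa, H2-Ob and Ctss, taken by symbol from a table of 18477 genes, and all 10 were among the 14579 genes tested. Male C57BL/6 mice, 6 to 8 weeks old when obtained, drank 2% dextran sulfate sodium (DSS), a polysaccharide that injures the colon epithelium, over the last 7 days of a 14-day course. Every mouse was gavaged daily through those 14 days, the DSS group with phosphate-buffered saline and the DSS+BV group with *Bacteroides vulgatus* from a culture collection. RNA was sequenced from the colon of 3 mice in each group, drawn at random, and both groups carried DSS, so no value here stands for an uninjured colon. The comparison asks how *B. vulgatus* altered colonic gene expression during colitis.

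MHC class II molecules are pairs of an alpha and a beta chain that show peptides from endosomes to CD4+ T cells. The chains leave the endoplasmic reticulum bound to the invariant chain, proteases in endosomes trim it to a short peptide, and the H2-DM dimer exchanges that peptide for an antigenic peptide while the H2-DO dimer restrains H2-DM. B cells, dendritic cells and macrophages carry class II at rest, epithelial cells can acquire it under interferon gamma, and transcription of the genes depends on the coactivator CIITA acting through a shared promoter.

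That promoter is known for an X box, bound by the RFX complex, followed by a Y box, bound by NF-Y. RefSeq windows of 250 bases before a transcription start (GRCm38.p6) were at hand for 7 of the 10 genes and not for H2-Ab1, Cd74 and Ciita. The letters searched on both strands were AGNAAC, the core of the X box, and ATTGG, the core of the Y box. An AGNAAC followed on the same strand by an ATTGG, with starts 25 to 40 bases apart, stood before H2-Eb1, H2-DMb1, H2-Oa and H2-Ob. That is 4 of the 7 genes and 4 of their 8 windows, against 224 of 32851 windows genome-wide (0.682%). The starts were 33 bases apart in H2-Eb1, 34 in H2-DMb1, 34 in H2-Oa and 31 in H2-Ob. Alone, the X letters were in 42.3% and the Y letters in 33.8% of all windows. Stretches before 4 of the genes follow, 5′ to 3′ on the strand of the gene, to let the spacing be read directly. Capitals mark the paired X and Y letters, and in H2-Aa the Y letters alone.
H2-Eb1: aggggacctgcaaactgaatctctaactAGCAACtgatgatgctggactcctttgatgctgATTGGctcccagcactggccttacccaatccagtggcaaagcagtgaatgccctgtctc
H2-Ob: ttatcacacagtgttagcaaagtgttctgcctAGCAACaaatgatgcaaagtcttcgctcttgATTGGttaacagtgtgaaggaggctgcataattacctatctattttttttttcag
H2-Oa: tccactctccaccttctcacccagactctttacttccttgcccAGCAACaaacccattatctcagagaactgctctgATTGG
H2-Aa: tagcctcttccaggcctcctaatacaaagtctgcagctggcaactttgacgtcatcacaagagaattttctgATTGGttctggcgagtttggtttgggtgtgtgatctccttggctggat

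The H2-Eb1 stretch lies at chr17:34305747-34305866, the H2-Ob stretch at chr17:34238785-34238902 and the H2-Oa stretch at chr17:34092259-34092340, all on the plus strand. The H2-Aa stretch lies at chr17:34287824-34287943 on the minus strand. H2-Aa had the Y letters 48 bases before its start and no AGNAAC on its own strand in the window. Its stretch does hold ggcaac, which differs from AGCAAC in the first letter, before the Y letters at a spacing within that searched. The lack of AGNAAC therefore does not show that H2-Aa lacks an X box. The window of Ctss and both windows of H2-DMa had no pair of AGNAAC and ATTGG at that spacing. Both H2-DMa windows, chr17:34122582-34122881 and chr17:34125268-34125567, lie inside the span of the gene, chr17:34119693-34139101. Bases before that span were not searched, so H2-DMa may still have a pair there. A match of letters describes the sequence and does not locate a bound site.

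**Figure D1:**
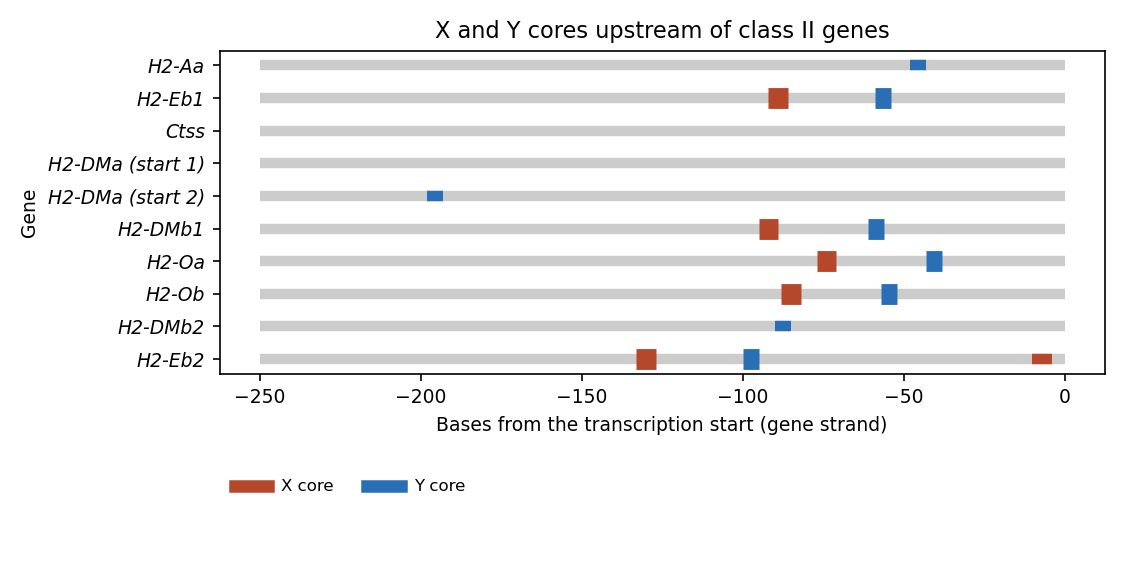
Positions of the X core (AGNAAC, red) and the Y core (ATTGG, blue) in the 250 bases before each RefSeq transcription start, on the strand of the gene, with tall marks for letters that form a pair with starts 25 to 40 bases apart. H2-Eb1, H2-DMb1, H2-Oa and H2-Ob share a pair with the Y core 43 to 61 bases before the start, and the related gene H2-Eb2 has a pair farther upstream.

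The 6 libraries held 15293276 to 17254343 expected counts, and levels are given as CPM, counts brought to a common library total after TMM scaling. The tissue label was checked with 14 colon epithelium genes, all detected, among them Epcam, an adhesion molecule of epithelium, at 1264 to 1749 CPM. Libraries within each group stood apart. Over the 13 B cell markers the summed level was 244, 32.6 and 400.4 CPM in DSS 1, 2 and 3 and 353, 19.3 and 22.4 CPM in DSS+BV 1, 2 and 3. Neutrophil genes, by contrast, were lower in DSS+BV, with 5 of 9 called, against 0.0892% of all tested genes, and 7 of 9 without overlap between the groups, against 11.3%. In bulk tissue, fewer cells of a type and less RNA per cell cannot be told apart.

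No class II gene passed the test between DSS+BV and DSS. With the quasi-likelihood test in edgeR and p-values adjusted by the Benjamini-Hochberg method, 0 of 10 were called at an adjusted p under 0.05 with an absolute log2 fold change over 1, against 13 of 14579 genes (0.0892%), all of them lower in DSS+BV. At an unadjusted p under 0.05 the count was 0 of 10, against 12.5% of all genes, and DESeq2 also called 0 of 10, against 2.07% of its genes. All 10 estimates were below 0, from -1.24 to -0.29, with a median of -0.48, whereas 51.5% of all tested genes were below 0 and the median of all was -0.011. In all 10 genes the range of the DSS libraries overlapped that of the DSS+BV libraries, while 17.6% of all genes had groups that did not overlap. The direction rested on DSS 3: without it the median was 0.077 and 3 of 10 estimates stayed below 0, and without DSS+BV 1 the median was -1.08 with 0 of 10 called.

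**Figure D2:**
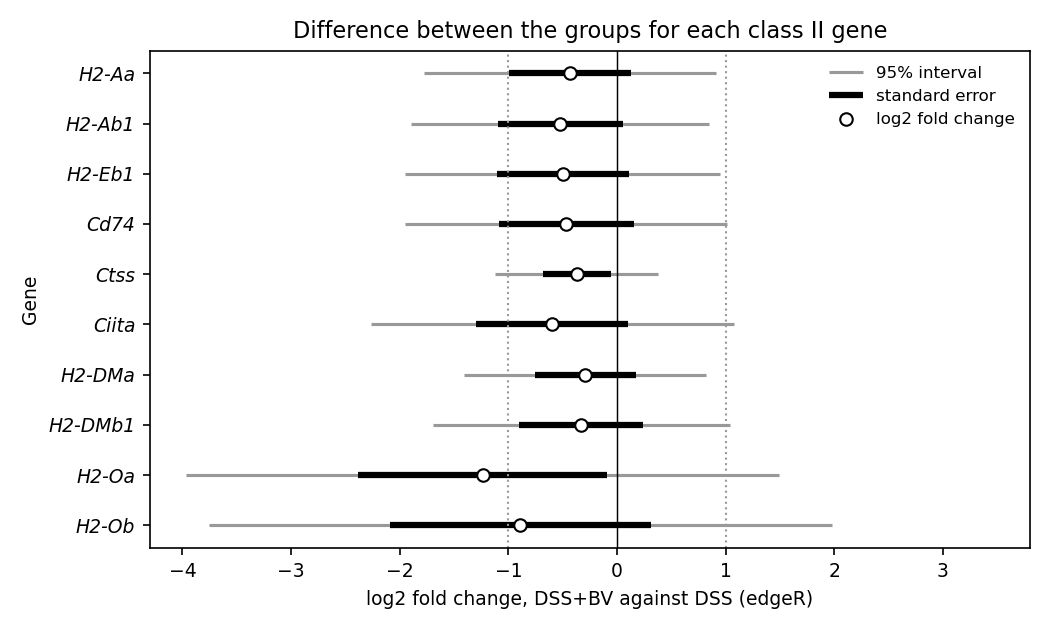
Log2 fold change of DSS+BV against DSS for each class II gene from edgeR, with its standard error (thick bar) and 95% interval (thin bar), and dotted lines at -1 and 1. Every interval spans 0, and the intervals of H2-Oa and H2-Ob are the widest, from -3.97 to 1.49 and from -3.76 to 1.98.

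The classical chains were abundant and moved together from library to library. H2-Aa (Entrez 14960, chr17:34282744-34287823), the alpha chain of I-A, stood at 339, 153 and 565 CPM in DSS mice 1, 2 and 3, against 441, 169 and 172 CPM in DSS+BV mice 1, 2 and 3. H2-Ab1 (Entrez 14961, chr17:34263227-34269418), the beta chain of I-A, stood at 216, 94.3 and 399.7 CPM in DSS mice, against 269, 114 and 111 CPM in DSS+BV mice. H2-Eb1 (Entrez 14969, chr17:34305867-34316674), a beta chain of the I-E type, stood at 155, 66.5 and 303 CPM in DSS mice, against 208, 76.5 and 86.4 CPM in DSS+BV mice. In all 3 chains DSS 3 was highest, followed by DSS+BV 1 and DSS 1, and the remaining libraries lay close to each other, so that each group held both high and low values. The mean of H2-Aa was 352 ± 207 CPM for DSS mice and 261 ± 156 CPM for DSS+BV mice (SD, n = 3 each). Its log2 fold change was -0.43 with a standard error of 0.56 (95% interval -1.78 to 0.91), and the edgeR adjusted p was 0.775. H2-Ab1 gave -0.52 (95% interval -1.89 to 0.85) with an edgeR adjusted p of 0.730. H2-Eb1 gave -0.50 (95% interval -1.95 to 0.95) with an edgeR adjusted p of 0.758. Without DSS 3 the 3 estimates were 0.084, 0.085 and 0.16.

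**Figure D3:**
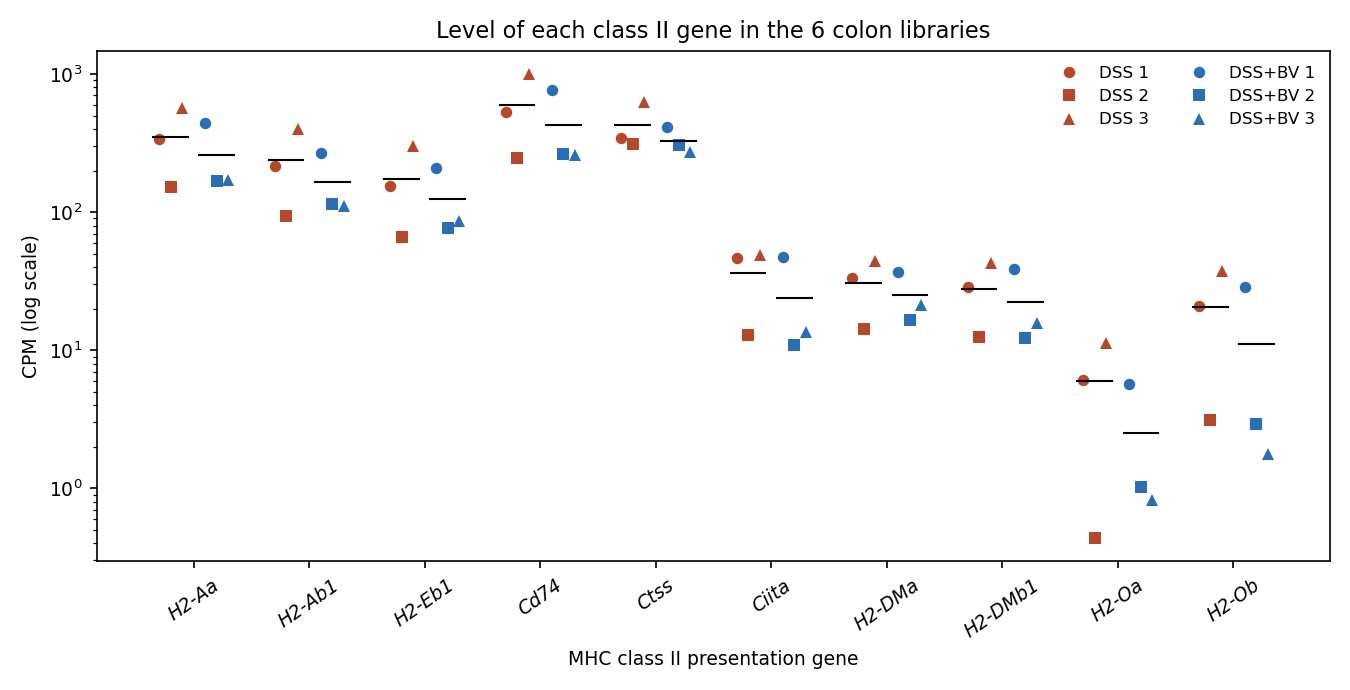
Level of each class II gene in CPM on a log scale, with DSS libraries in red, DSS+BV libraries in blue, the replicate number by symbol and the group mean as a bar. DSS 1, DSS 3 and DSS+BV 1 are the 3 highest libraries for all 10 genes, and the spread is widest for H2-Oa and H2-Ob.

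Cd74 (Entrez 16149, chromosome 18), the invariant chain that fills the groove and guides class II to endosomes, stood at 535, 247 and 1002 CPM in DSS mice, against 769.7, 263 and 258 CPM in DSS+BV mice. As in the chains, DSS 3 was highest, followed by DSS+BV 1 and DSS 1. Its log2 fold change was -0.47 (95% interval -1.95 to 1.02), with an edgeR adjusted p of 0.781. Ctss (Entrez 13040, chr3:95526786-95556405) encodes cathepsin S, the protease that makes the last cuts in the invariant chain in B cells and dendritic cells. It stood at 343, 313 and 627 CPM in DSS mice, against 415, 304 and 272 CPM in DSS+BV mice. Ctss varied least of the 10, its highest library being 2.31 times its lowest, against 4.06 times for Cd74. Its means were 428 ± 173 and 330.3 ± 75.2 CPM (SD, n = 3 each), and its log2 fold change was -0.37 (95% interval -1.12 to 0.38) with an edgeR adjusted p of 0.650. That interval, the narrowest of the 10, still reached past a 2-fold decrease.

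Ciita (Entrez 12265, chr16:10480014-10531064), the coactivator on which class II transcription depends, stood at 46.3, 12.99 and 49.1 CPM in DSS mice, against 47.4, 10.8 and 13.5 CPM in DSS+BV mice. The libraries fell into a high set of 3, from 46.3 to 49.1 CPM, and a low set of 3, from 10.8 to 13.5 CPM, each set drawn from both groups. The means were 36.1 ± 20.1 and 23.9 ± 20.4 CPM (SD, n = 3 each), with a log2 fold change of -0.60 (95% interval -2.27 to 1.08) and an edgeR adjusted p of 0.749. The estimate was -1.56 without DSS+BV 1 and -0.24 without DSS+BV 2. In the GENCODE annotation Ciita overlaps Dexi on the other strand, and whether counting used strand is not given in the sources used here.

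The peptide-exchange genes split into H2-DM, which resembled the classical chains, and H2-DO, which ranged far more widely. H2-DMa (Entrez 14998, chr17:34119693-34139101), the alpha chain of the exchange factor, stood at 33.4, 14.2 and 44.1 CPM in DSS mice, against 37.1, 16.6 and 21.2 CPM in DSS+BV mice. Its partner H2-DMb1 (Entrez 14999, chr17:34153191-34160229) stood at 28.6, 12.5 and 42.6 CPM in DSS mice, against 38.9, 12.2 and 15.6 CPM in DSS+BV mice. Both had a highest library 3.08 to 3.47 times the lowest. The log2 fold change was -0.29 for H2-DMa (95% interval -1.41 to 0.82, edgeR adjusted p of 0.820). For H2-DMb1 it was -0.33 (95% interval -1.69 to 1.04, edgeR adjusted p of 0.838). H2-Oa (Entrez 15001, chr17:34092379-34095234), the alpha chain of the inhibitor, stood at 6.05, 0.435 and 11.4 CPM in DSS mice, against 5.74, 1.02 and 0.822 CPM in DSS+BV mice. Its partner H2-Ob (Entrez 15002, chr17:34238905-34245908) stood at 20.8, 3.11 and 37.7 CPM in DSS mice, against 28.6, 2.93 and 1.77 CPM in DSS+BV mice. For these genes the highest library was 20.5 and 19.95 times the lowest after a prior count of 2, against a median of 1.80 times over all tested genes.

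The log2 fold change was -1.24 for H2-Oa (95% interval -3.97 to 1.49, edgeR adjusted p of 0.678). For H2-Ob it was -0.89 (95% interval -3.76 to 1.98, edgeR adjusted p of 0.785). H2-Oa was the thinnest measurement, with 7 expected counts in DSS 2 and 13 in DSS+BV 3 against 195 in DSS 3. Without DSS+BV 1 the estimates were -2.68 for H2-Oa and -3.12 for H2-Ob, and without DSS 3 they were -0.36 and -0.11. In the GENCODE annotation H2-DMa overlaps Brd2, and H2-Oa overlaps BC051537, on the opposite strand.

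Other chain genes of the region set these levels in context. H2-Ea, which would pair with H2-Eb1 and which C57BL/6 mice are known not to transcribe, had 0 expected counts in all 6 libraries, which allows up to 0.175 to 0.198 CPM at 3 counts. H2-Eb2, a second I-E type beta chain, stood at 11.02, 0.933 and 18.8 CPM in DSS mice, against 13.7, 1.08 and 1.01 CPM in DSS+BV mice. H2-DMb2, the second beta chain of H2-DM, stood at 22.3, 2.92 and 30.0 CPM in DSS mice, against 23.9, 2.55 and 1.96 CPM in DSS+BV mice. Both resembled H2-DO rather than their namesakes in range, with a highest library 17.9 and 14.5 times the lowest. Both gave a log2 fold change of -0.96, with edgeR adjusted p of 0.781 and 0.752. The coding sequences of H2-DMb1 and H2-DMb2 were identical at 751 of 783 bases (95.9%), against 77.9% for H2-Eb1 and H2-Eb2 and 72.5% for H2-Ab1 and H2-Eb1. Their expected counts were not whole, 476.53 for H2-DMb1 and 372.47 for H2-DMb2 in DSS 1, as RSEM gives where it divides shared reads, and their separate levels are uncertain. With both summed, the log2 fold change was -0.55 and the edgeR adjusted p 0.780.

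Per length, several steps in level between the genes held in each library. The median over the 6 libraries, in CPM per kilobase of transcript, was 283 for Cd74, 242 for Ctss, 227 for H2-Aa, 136 for H2-Ab1 and 72.3 for H2-Eb1. It was 16.5 for H2-DMa, 15.7 for H2-DMb1, 7.25 for H2-Ob, 7.06 for Ciita and 3.11 for H2-Oa. H2-Aa stood above H2-Ab1 in 6 of 6 libraries, by 1.52 to 1.76 times, and H2-Ab1 stood above H2-Eb1 in 6 of 6, by 1.77 to 2.05 times. H2-Eb1 stood 4.04 to 6.83 times above H2-DMa. The size of each step depends on the transcript taken for each gene, 1212 bases long for H2-Ab1 and 1669 for H2-Eb1. Neighbours without a steady order were Cd74 and Ctss, Ctss and H2-Aa, and H2-Ob and Ciita, each pair split 3 of 6, and H2-DMa stood above H2-DMb1 in 2 of 6 libraries.

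The balance between class II genes inside a library was then compared, since a difference of 2 genes in the same library does not depend on how libraries are scaled. H2-Ab1 minus Cd74, the chain against its chaperone, was steadiest, at -1.31, -1.39 and -1.33 on the log2 CPM scale in DSS and -1.51, -1.20 and -1.22 in DSS+BV. Ctss minus H2-Ab1 was 0.66, 1.73 and 0.65 in DSS and 0.62, 1.41 and 1.29 in DSS+BV, lowest in the 3 libraries where the chains were high. H2-DMa minus H2-Oa, the exchange factor against its inhibitor, was 2.44, 4.68 and 1.95 in DSS and 2.67, 3.87 and 4.50 in DSS+BV. The partner chains ran the same way, as H2-DMb1 minus H2-Ob was 0.45, 1.96 and 0.18 in DSS and 0.44, 2.01 and 3.05 in DSS+BV. H2-Ab1 minus Ciita was 2.22, 2.85 and 3.02 in DSS and 2.504, 3.38 and 3.02 in DSS+BV. In no pair did the groups separate.

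The group means of these differences were 0.65 apart for H2-DMa minus H2-Oa (two-sided exact permutation p = 0.6) and 0.97 apart for H2-DMb1 minus H2-Ob (exact permutation p = 0.3). They were 0.27 apart for H2-Ab1 minus Ciita (exact permutation p = 0.4), 0.028 for H2-Ab1 minus Cd74 (exact permutation p = 1) and 0.095 for Ctss minus H2-Ab1 (exact permutation p = 1). Each value is DSS+BV minus DSS, and over the 5 pairs every adjusted p was 1. With 3 libraries against 3 the smallest p possible was 0.1, so this test could not pass 0.05. Leaving out a library moved the H2-DMa minus H2-Oa difference between 0.12 without DSS 3 and 1.48 without DSS 2. For H2-DMb1 minus H2-Ob it ran from 0.36 without DSS+BV 3 to 1.67 without DSS+BV 1, and for H2-Ab1 minus Ciita from 0.036 without DSS 1 to 0.51 without DSS+BV 1. The difference turned to -0.087 for Ctss minus H2-Ab1 without DSS 3, against 0.45 without DSS 2. It turned to -0.027 for H2-Ab1 minus Cd74 without DSS+BV 2, against 0.13 without DSS+BV 1.

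**Figure D4:**
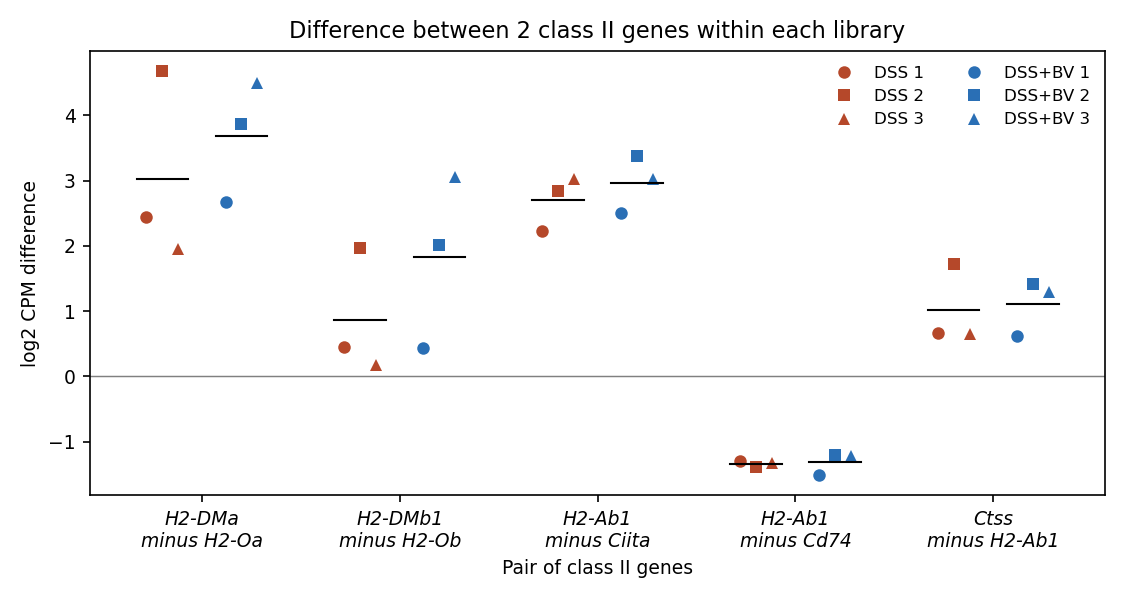
Difference in log2 CPM between 2 class II genes within each library, for 5 pairs, with DSS in red, DSS+BV in blue and the group mean as a bar. H2-Ab1 minus Cd74 spans 0.31 over the 6 libraries, whereas the pairs with H2-Oa and H2-Ob span 2.74 and 2.88.

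All 10 genes had the same libraries at the top. DSS 1, DSS 3 and DSS+BV 1 were the 3 highest libraries for 10 of 10 class II genes. These 3 libraries were taken from the class II values themselves, so that count is a description and no test. Of all tested genes, 1710 of 14579 (11.7%) had the same 3 libraries highest. Averaged over H2-Aa, H2-Ab1, H2-Eb1, Cd74, Ciita, H2-DMa and H2-DMb1, the centred log2 CPM was 0.42, -0.86 and 1.07 in DSS and 0.74, -0.77 and -0.60 in DSS+BV. The ratio of the highest to the lowest library had a median of 4.15 over the 10 genes.

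Markers of the cells that carry class II mostly had the same 3 libraries highest, and their part in the class II levels was not tested. All 13 B cell markers had those 3 libraries highest, with a median ratio of highest to lowest of 32.6. Cd79a, a signalling chain of the B cell receptor, stood at 39.1, 4.48 and 66.9 CPM in DSS mice, against 53.0, 1.91 and 2.66 CPM in DSS+BV mice. The 13 markers were all below 0 in log2 fold change, with a median of -0.84, and 0 were called by edgeR or DESeq2 or had an unadjusted p under 0.05. Among dendritic cell markers 8 of 12 had those 3 libraries highest, and the summed level was 105, 59.4 and 153 CPM in DSS mice, against 104, 48.7 and 41.2 CPM in DSS+BV mice. Flt3, the receptor of a dendritic cell growth factor, stood at 8.50, 4.10 and 14.2 CPM in DSS mice, against 9.04, 2.80 and 1.64 CPM in DSS+BV mice. Zbtb46, a factor of conventional dendritic cells, ran from 4.36 CPM in DSS+BV 3 to 11.1 CPM in DSS 3. Clec10a, a lectin of dendritic cells and macrophages, ran otherwise, at 22.3, 13.6 and 20.1 CPM in DSS mice, against 6.40, 5.48 and 2.91 CPM in DSS+BV mice, without overlap. Its log2 fold change was -1.92, with an edgeR adjusted p of 0.175 and a DESeq2 adjusted p of 0.000111. Of the 12, edgeR called 0, DESeq2 called Clec10a alone and 1 had an unadjusted p under 0.05, with a median log2 fold change of -0.52. The shares over all genes were 2.07% called by DESeq2 and 12.5% at an unadjusted p under 0.05.

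Among macrophage and monocyte markers 11 of 14 had those 3 libraries highest, with a summed level of 1481, 961 and 2133 CPM in DSS mice, against 1508, 685 and 653 CPM in DSS+BV mice. Lyz2, the lysozyme gene of myeloid cells, stood at 491, 331 and 824 CPM in DSS mice, against 682, 259 and 241 CPM in DSS+BV mice. Csf1r, the receptor through which macrophages are maintained, had a log2 fold change of -0.90 (edgeR adjusted p of 0.441), and the list had a median of -0.86. Of the 14, edgeR called 0, DESeq2 called 1 and 1 had an unadjusted p under 0.05. The gene called was Mrc1, the mannose receptor, at 151, 90.3 and 142 CPM in DSS mice, against 77.0, 43.3 and 31.7 CPM in DSS+BV mice. Its groups did not overlap, and its log2 fold change was -1.33, with an edgeR adjusted p of 0.300 and a DESeq2 adjusted p of 0.0310. The libraries low in class II were low in all 3 marker lists, but by different amounts. Macrophage markers summed to 961 CPM in DSS 2, against 1481 CPM in DSS 1 and 2133 CPM in DSS 3. B cell markers summed to 32.6 CPM in DSS 2, against 244 CPM in DSS 1 and 400 CPM in DSS 3. Of the 14 colon epithelium genes, 0 had those 3 libraries highest, and their median log2 fold change was 0.52. Of these 14, edgeR called 0, DESeq2 called 2 and 6 had an unadjusted p under 0.05. Over all tested genes 12.5% had an unadjusted p under 0.05, and DESeq2 called 2.07% of its genes.

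**Figure D5:**
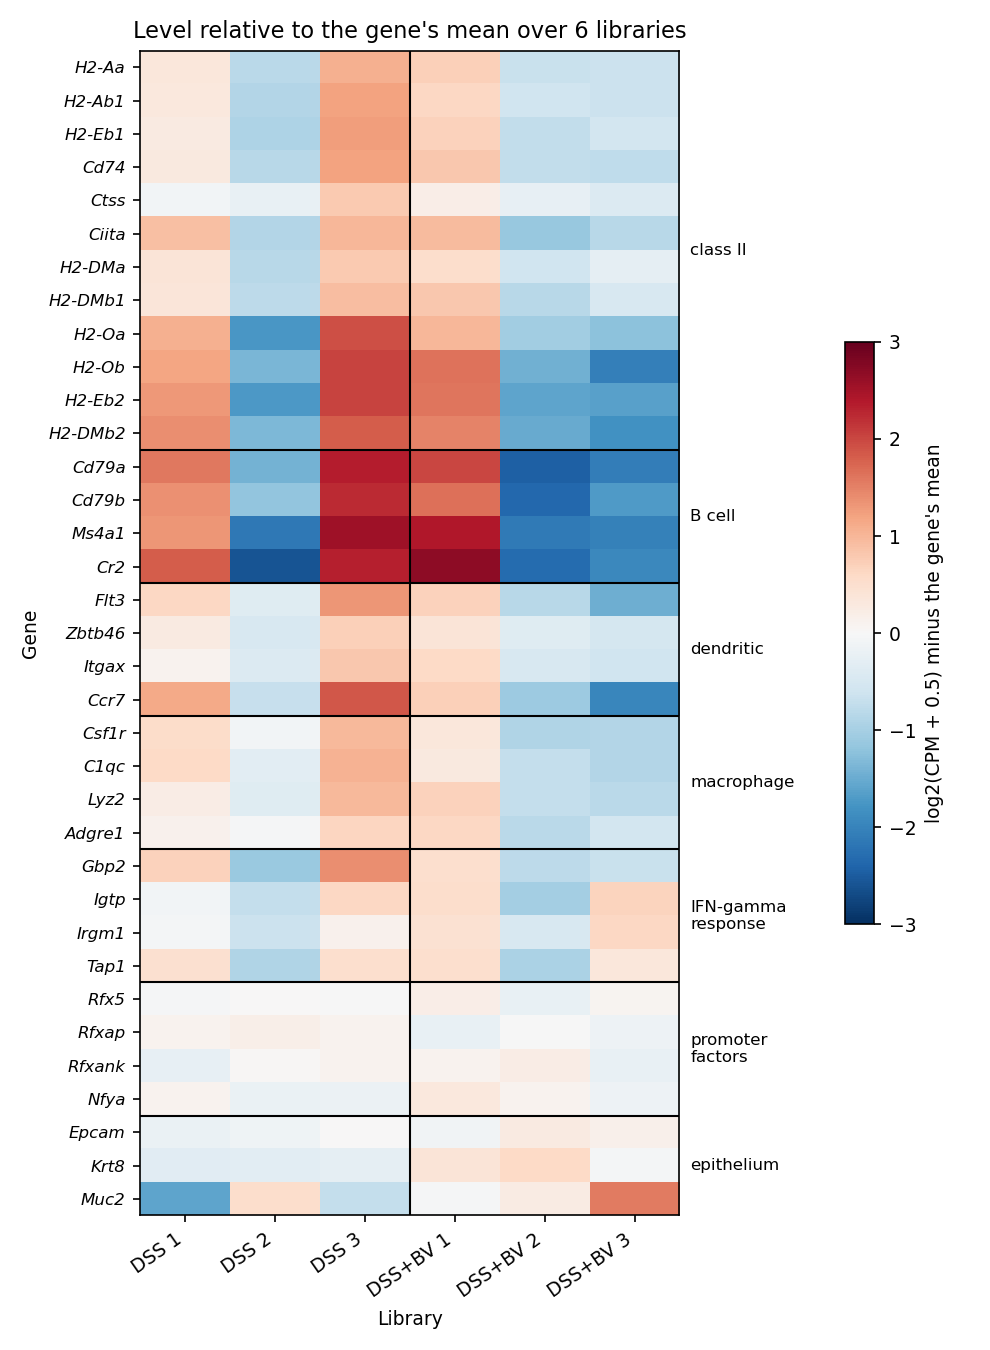
Level of the class II genes and of examples from other lists in each library, as log2(CPM + 0.5) minus the mean of the gene over the 6 libraries, red above and blue below it. DSS 1, DSS 3 and DSS+BV 1 are red for most class II, B cell, dendritic and macrophage genes, with Ctss near its mean in DSS 1, B cell genes and H2-Oa, H2-Ob, H2-Eb2 and H2-DMb2 have the strongest colours, and the promoter factors are near white.

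The genes whose level ran most like the class II average were then listed, by Pearson's r over the 6 libraries among 11932 candidates with a mean of at least 5 CPM. The closest 12 were Ptprcap (r = 0.996), Ltb, Gimap3, Dennd2a, Pik3ap1, Gng5, H2-Q6, Lpxn, Gimap8, Rasal3, Il2rb and Ms4a1 (r = 0.990). Ltb, lymphotoxin beta, stood at 9.64, 2.42 and 20.2 CPM in DSS mice, against 14.05, 2.04 and 2.59 CPM in DSS+BV mice, and Ms4a1, the B cell surface protein CD20, stood at 17.9, 1.18 and 42.5 CPM in DSS mice, against 38.8, 1.21 and 1.33 CPM in DSS+BV mice. A high r did not mean a like size of change: Gng5, a G protein gamma subunit, lay between 99.8 and 109 CPM in all libraries. These r values describe 6 points that share their libraries, and H2-Q6 belongs to a class I family of near-identical genes whose reads are hard to assign.

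Beyond the 10 genes, 48 other genes of the class II pathway were tested out of 54 symbols written down, older and newer symbols of a gene counted apart, and 0 were called by edgeR or by DESeq2. Of the 48, 35 were below 0 and 13 above, with a median log2 fold change of -0.35. At an unadjusted p under 0.05 there were 3, all lower in DSS+BV, beside 12.5% of all genes. The groups did not overlap in 3, all lower, against 11.3% of all genes.

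Genes of endolysosomal proteolysis and reduction, which include proteases, the inhibitor Cst3 and the reductase Ifi30, had 9 of 10 estimates below 0 and a median of -0.41. Ctsl, cathepsin L, stood at 259, 237 and 361 CPM in DSS mice, against 191, 181 and 185 CPM in DSS+BV mice. Every DSS library thus lay above every DSS+BV library, with a log2 fold change of -0.62, an unadjusted p of 0.0137 and an edgeR adjusted p of 0.329. Lgmn, an asparaginyl endopeptidase, stood at 274, 178 and 369.9 CPM in DSS mice, against 170.4, 139 and 178 CPM in DSS+BV mice, with a log2 fold change of -0.75 and an edgeR adjusted p of 0.366. Ifi30, the lysosomal thiol reductase, was the exception at 0.10 (edgeR adjusted p of 0.862).

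The factors that bind the class II promoter did not share this pattern, with 0 of 7 having DSS 1, DSS 3 and DSS+BV 1 highest. They were also even, with a median ratio of highest to lowest library of 1.35 and a median log2 fold change of 0.043. Rfxap, a subunit of the RFX complex, stood at 11.5, 11.9 and 11.4 CPM in DSS mice, against 9.04, 10.4 and 9.55 CPM in DSS+BV mice, without overlap, yet its log2 fold change was -0.26 and its edgeR adjusted p 0.572. Nfya, a subunit of NF-Y, gave 0.17 and an edgeR adjusted p of 0.698, and its partner Nfyc gave 0.12 and an edgeR adjusted p of 0.791. Ciita thus ranged 4.49-fold between libraries while the factors it works with ranged far less.

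Lineage factors upstream of Ciita had a median of -0.63, with 5 of 6 below 0. Prdm1, the repressor BLIMP-1, stood at 18.5, 16.8 and 37.6 CPM in DSS mice, against 15.2, 12.7 and 10.5 CPM in DSS+BV mice, with a log2 fold change of -0.92, an unadjusted p of 0.0345 and an edgeR adjusted p of 0.377. Spi1, the myeloid and B cell factor PU.1, stood at 23.6, 10.4 and 32.3 CPM in DSS mice, against 16.5, 6.05 and 4.99 CPM in DSS+BV mice, and gave -1.27 with an edgeR adjusted p of 0.433. Irf8, a factor of dendritic cells and B cells, gave 0.077 and an edgeR adjusted p of 0.883. Spi1 had DSS 1, DSS 3 and DSS+BV 1 highest and Prdm1 and Irf8 did not.

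Genes of surface turnover gave 3 of 4 estimates below 0. Marchf1, a ubiquitin ligase that removes class II from the surface, stood at 21.6, 8.70 and 39.4 CPM in DSS mice, against 23.3, 6.37 and 5.12 CPM in DSS+BV mice, while the related Marchf8 gave 0.21 (edgeR adjusted p of 0.746). Cd83, which opposes Marchf1, gave -0.35 (edgeR adjusted p of 0.854). For Marchf1 the log2 fold change was -1.005 and the edgeR adjusted p 0.606. Costimulation and CD4 recognition gave 10 of 11 below 0, with a median of -0.61. Ctla4, an inhibitory receptor of T cells, gave -1.29 (edgeR adjusted p of 0.493) and Lag3, a T cell receptor for class II, gave -0.80 (edgeR adjusted p of 0.545). Cd4, the coreceptor that binds class II, stood at 18.4, 14.1 and 28.1 CPM in DSS mice, against 35.1, 13.6 and 12.3 CPM in DSS+BV mice, a log2 fold change of 0.0080. In 10 of these 11 genes DSS 1, DSS 3 and DSS+BV 1 were again the 3 highest libraries.

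Interferon gamma is the cytokine best known to raise Ciita outside professional presenting cells. Ifng itself was too low to test, with 4, 2 and 3 expected counts in DSS and 0, 2 and 2 in DSS+BV. The 8 signalling genes tested between its receptor and Ciita gave 0 calls by edgeR or DESeq2, 0 at an unadjusted p under 0.05 and a median log2 fold change of -0.0090. Ifngr1, the receptor chain that binds it, gave -0.42 with an edgeR adjusted p of 0.466. Socs1, a feedback inhibitor, gave -0.46 (edgeR adjusted p of 0.672) and Ifngr2, the second receptor chain, gave 0.037 (edgeR adjusted p of 0.930).

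The 20 interferon gamma response genes were mixed in DSS+BV 3, where H2-Ab1 was at 111 CPM, the second lowest of its 6 libraries. Their summed level was 922, 437 and 1345 CPM in DSS mice, against 1073, 445 and 899 CPM in DSS+BV mice, so DSS+BV 3 lay near DSS 1 and well above DSS 2 and DSS+BV 2. Of the 20, 15 were below 0 and 5 above, with a median of -0.09, 0 were called by edgeR or DESeq2 or had an unadjusted p under 0.05, and 10 had the 3 highest libraries of class II. Gbp5, a guanylate-binding protein, stood at 25.2, 10.3 and 47.8 CPM in DSS mice, against 17.7, 7.96 and 6.58 CPM in DSS+BV mice, lowest in DSS+BV 3, and gave -1.37 (edgeR adjusted p of 0.425), and Gbp2 gave -0.85 (edgeR adjusted p of 0.615). Igtp, an immunity-related GTPase, stood at 37.1, 23.7 and 60.9 CPM in DSS mice, against 57.0, 19.1 and 63.3 CPM in DSS+BV mice and gave 0.20 (edgeR adjusted p of 0.897). Irgm1, of the same family, was highest in DSS+BV 3 at 141 CPM and gave 0.43 (edgeR adjusted p of 0.620).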

How the data were processed

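Colon RNA of 3 DSS and 3 DSS+BV mice was sequenced. The authors quantified genes with RSEM and deposited expected counts per gene, unscaled between libraries. Per the labels, the submitters' processing notes name HISAT2 2.1.0, Bowtie2 2.2.5, RSEM 1.2.8 and GRCm38.p6. The annotation and the use of strand are not given in the sources used here. Library totals were 15293276 to 17254343, and a floor of 3 counts covers counting error only.

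Expected counts were rounded (1573 genes had a value that was not whole), filtered with filterByExpr (minimum count 10, minimum total 15) and scaled by TMM. Groups were compared in R 4.3.3 by edgeR 4.0.16 (quasi-likelihood test), and p-values were adjusted over the 14579 genes tested by the Benjamini-Hochberg method. A gene was called at an adjusted p under 0.05 if its log2 fold change also exceeded 1 in size. Log2 CPM and ratios of highest to lowest library used a prior count of 2. Transcript lengths came from GENCODE M21, for each gene from the protein-coding transcript with the longest coding sequence. Gene positions and promoter windows came from RefSeq. No libraries agreed within sampling noise. The edgeR and DESeq2 fits were tested on simulated counts, drawn gene by gene and so without a library pattern shared between genes.

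The class II genes, lists and tests were chosen with earlier results of these data known. Named genes were the 10 class II genes, in each pathway list the genes called and the 2 of smallest p in each direction, in lists of cells that carry class II abundant or defining genes, and the 12 genes most like class II. H2-Ea, Ifng, Clec10a, Mrc1, Cst3, Cxcl13 and the other genes of the H2 region were named after their values were seen.

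Alternatives were DESeq2 1.42.0, other scaling, other filters, no fold threshold, a robust fit, a replicate block, each library left out, a prior count of 0.5, Spearman correlation and a wider spacing of promoter letters. The sum of H2-DMb1 and H2-DMb2 and the identity of coding sequences, used in place of proteins, were added after the data were seen.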

Additional observations from a re-analysis of the deposited data

How the results depend on the processing

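The count of class II genes called was 0 under every alternative run, as was that of other class II pathway genes. Over all genes the main fit called 13 lower and 0 higher, and a filter of at least 1 CPM in 3 libraries gave 11 lower and 0 higher. DESeq2 called 281 lower and 46 higher, and with a library left out edgeR called 0 to 3 lower and 0 to 4 higher. Deviations of same-numbered libraries correlated at 0.27, 0.25 and -0.30. DSS 1 correlated best with its own number, and DSS 2 and DSS 3 with another number. With 3 libraries a group these correlations cannot tell whether the replicate numbers paired the mice. With the replicate block the count was 0 lower, class II calls stayed at 0 and their median was -0.38. Without DSS replicate 3 the log2 fold change reversed to 0.084 for H2-Aa, 0.085 for H2-Ab1, 0.16 for H2-Eb1, 0.14 for Cd74, 0.011 for Ctss, 0.069 for H2-DMa and 0.11 for H2-DMb1, and the cause was not tested. Without DSS+BV replicate 1 the same genes gave -1.04, -1.07, -1.10, -1.18, -0.56, -0.68 and -0.996. The class II median lay between -1.08 without DSS+BV replicate 1 and 0.077 without DSS replicate 3. Under Spearman correlation 5 of the 12 genes most like class II remained, rho being tied at 1 for the 12th gene. Promoter letters 15 to 60 bases apart were in 1.95% of windows. Depth limited H2-Oa most, at 7 to 195 expected counts, and 3 libraries a group leave wide intervals for the rest.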

Other observations

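The class II genes of chromosome 17 lie in an interval of 252 kb, chr17:34092379-34344645 from H2-Oa to H2-Ea, which holds 14 protein-coding genes in the table, 7 of the 10 class II genes among them. Of the 5 genes of other pathways in the interval, Psmb9, Tap1, Psmb8 and Tap2 also had DSS 1, DSS 3 and DSS+BV 1 highest, and Brd2 did not. Brd2, a chromatin reader with a part of its span over H2-DMa, lay between 200.7 and 223 CPM in all 6 libraries, with a log2 fold change of 0.042. Psmb9 and Psmb8, subunits of the immunoproteasome, were at 34.1 and 66.4 CPM in DSS+BV 3, against 17.1 and 44.3 CPM in DSS+BV 2. Tap1, a subunit of the transporter that loads class I molecules, stood at 106, 40.6 and 108 CPM in DSS mice, against 108, 39.3 and 96.1 CPM in DSS+BV mice, so DSS+BV 3 lay close to the 3 highest libraries for Tap1, while H2-Aa was at 172 CPM there. Tap2, its partner, was at 69.9 CPM in DSS+BV 3 and 48.0 CPM in DSS+BV 2.

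Other lists gave these values. Over all tested genes, 12.5% had an unadjusted p under 0.05, and 11.3% had groups that did not overlap with DSS+BV lower. By edgeR 0.0892% of them were called, and DESeq2 called 2.07% of its genes. Follicular stroma and lymphoid tissue genes had the 3 highest libraries of class II in 7 of 7, with a median log2 fold change of -0.78, 0 called by edgeR, 1 called by DESeq2 and 1 at an unadjusted p under 0.05. That gene was Cxcl13, the chemokine that draws B cells to follicles, which stood at 267, 54.3 and 482 CPM in DSS mice, against 94.8, 31.7 and 35.2 CPM in DSS+BV mice. Its log2 fold change was -2.31, with an edgeR adjusted p of 0.358 and a DESeq2 adjusted p of 0.0447. T cell markers had those libraries highest in 7 of 11 (median -0.37) and plasma cell genes in 3 of 6 (median -0.74), with 0 called by either tool and 0 at an unadjusted p under 0.05. They were highest in 1 of 5 genes of type 3 innate lymphoid cells (median -0.44) and 1 of 7 smooth muscle genes (median -0.23), with 0 called by either tool and 1 and 0 at an unadjusted p under 0.05. Stromal and vascular genes differed more between the groups. Of 7 fibroblast genes (median -1.09), 0 had those libraries highest, all 7 were lower at an unadjusted p under 0.05, 5 did not overlap, DESeq2 called 4 and edgeR called 0. Of 7 endothelial genes (median -0.63), 2 had those libraries highest, 4 were lower at an unadjusted p under 0.05, 4 did not overlap, DESeq2 called 1 and edgeR called 0.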
